A study of Mus musculus with 12 samples.

Results

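The prostaglandin pathway genes described here are the prostacyclin receptor gene Ptgir together with Ptgis, Ptgs1, Ptgs2, Ptges, Ptgds, Ptger2, Ptger4 and Ptgfr. All probe sets that the array annotation assigns to one of these 9 symbols alone were taken, and for each gene the probe set with the highest mean over the 12 arrays led. Of the 9 genes, 8 were measured, by 17 of the 45101 probe sets, against 18194 genes with such a probe set in all. Ptgs1 (COX-1) had no probe set under its symbol in the annotation table and was not analysed here. The set was chosen by the known rise of Ptgir in SRA-overexpressing ST2 adipocytes, so the values of Ptgir in that comparison are given as a description, with no test.

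Prostaglandins are made from arachidonate that phospholipases free from membranes. The cyclooxygenases Ptgs1 and Ptgs2 convert it to prostaglandin H2, and terminal synthases then make prostacyclin (Ptgis), prostaglandin E2 (Ptges) or prostaglandin D2 (Ptgds). The products leave the cell and act on G protein-coupled receptors. The prostacyclin receptor IP (Ptgir) and the prostaglandin E2 receptors EP2 (Ptger2) and EP4 (Ptger4) raise cAMP, and the prostaglandin F receptor FP (Ptgfr) signals through phospholipase C and calcium. In fat cell precursors, prostacyclin acting through IP is known to promote differentiation, and prostaglandin F2α acting through FP is known to inhibit it.

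The series compared adipocytes that differ in the steroid receptor RNA activator (SRA), a non-coding RNA coactivator of nuclear receptors. ST2 cells, a stromal line from mouse bone marrow (strain given as BC8), carried the retroviral vector pMSCV-SRA or the empty vector and were taken on day 4 of differentiation. 3T3-L1 cells, a mouse fibroblast preadipocyte line (Swiss albino), carried pSuperior-shSRA-2 or the control vector pSuperior-shcontrol, which the labels call an empty vector, and were taken on day 8. All 4 groups (called ST2 control, ST2 SRA, shControl and shSRA) had 3 arrays and received the same cocktail, which held 5 µM troglitazone, a PPARγ ligand, 0.167 µM insulin, dexamethasone at 1 µM and methylisobutylxanthine at 0.5 mM. Methylisobutylxanthine blocks the breakdown of cAMP. The vectors were carried from the preadipocyte stage on, the knockdown rests on a single hairpin, and whether the replicates came from separate infections is not given in the sources used here, so p-values measure the spread between these cultures only.

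Expression values are log2 values, so a difference of 1 is a 2-fold change, and they rank samples within a probe set, not genes against each other. The probe set of Sra1 fell by 2.36 from shControl to shSRA (SE 0.18, adjusted p = 5.58e-07), and was 0.22 higher in ST2 SRA than in ST2 control (adjusted p = 0.484, ranges overlapping). By the paper's methods, the SRA cDNA in pMSCV-SRA was taken from a human SRA expression vector. A mouse Sra1 probe set need not read the transcript of that vector, so it does not check the label ST2 SRA. The paper reports overexpression of SRA RNA from pMSCV-SRA, with the data not shown. The 8 adipocyte markers measured had array means between 12.7 and 14.1 in all groups. The means of the 8 macrophage markers lay between 5.66 and 6.05 and those of the 8 endothelial markers between 5.29 and 5.57, with 4 and 6 of them, respectively, below 6 on every array. Of these, 3 macrophage and 0 endothelial markers varied enough to be tested, and none passed in an SRA comparison. One array stood apart: ST2 control replicate 2, in which the median deviation of the 14314 bright probe sets (mean of 8 or more) from their own means was −0.43, against −0.07 to 0.24 on the other arrays. Values without this array are given where it matters. In such bulk RNA, fewer cells of a type and less RNA per cell cannot be told apart.

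Ptgir was the member that rose with SRA in ST2 adipocytes. The ST2 control arrays read 5.94, 5.76 and 6.70 (mean 6.14 ± 0.50, SD, n = 3), and the ST2 SRA arrays read 7.54, 8.52 and 8.48 (mean 8.18 ± 0.55, n = 3). Every SRA array lay above every control array, and SRA replicate 1 was nearest to the controls. The difference was 2.05 (SE 0.25), a 4.14-fold higher level, and it stayed between 1.86 and 2.37 when any 1 array was left out. It was 1.86 without ST2 control replicate 2. The SE and the range make no allowance for the choice of the set by this rise, so they are no test. The summed level of the adipocyte markers was also higher on all 3 SRA arrays (105.97 to 106.80) than on the control arrays (101.41 to 105.32). The control arrays include replicate 2, whose bright probe sets read low. Of the 8 adipocyte markers, 5 were tested and 1, Slc2a4, passed as higher, where 2.33% of probe sets did. The part of these markers in the Ptgir difference was not tested.

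In 3T3-L1 adipocytes, where SRA was knocked down, the Ptgir values of the groups lay close together. Ptgir read 5.27, 4.88 and 4.97 in shControl (mean 5.04 ± 0.21, n = 3) and 5.33, 4.88 and 5.14 in shSRA (mean 5.12 ± 0.23, n = 3). These ranges overlapped, and all 6 values lay below the lowest ST2 value. The difference was 0.08 (SE 0.25, 95% interval −0.45 to 0.60, adjusted p = 1.00). The order of Ptgir levels was therefore ST2 SRA, then ST2 control, then both 3T3-L1 groups, which did not differ from each other beyond their spread.

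**Figure D1:**
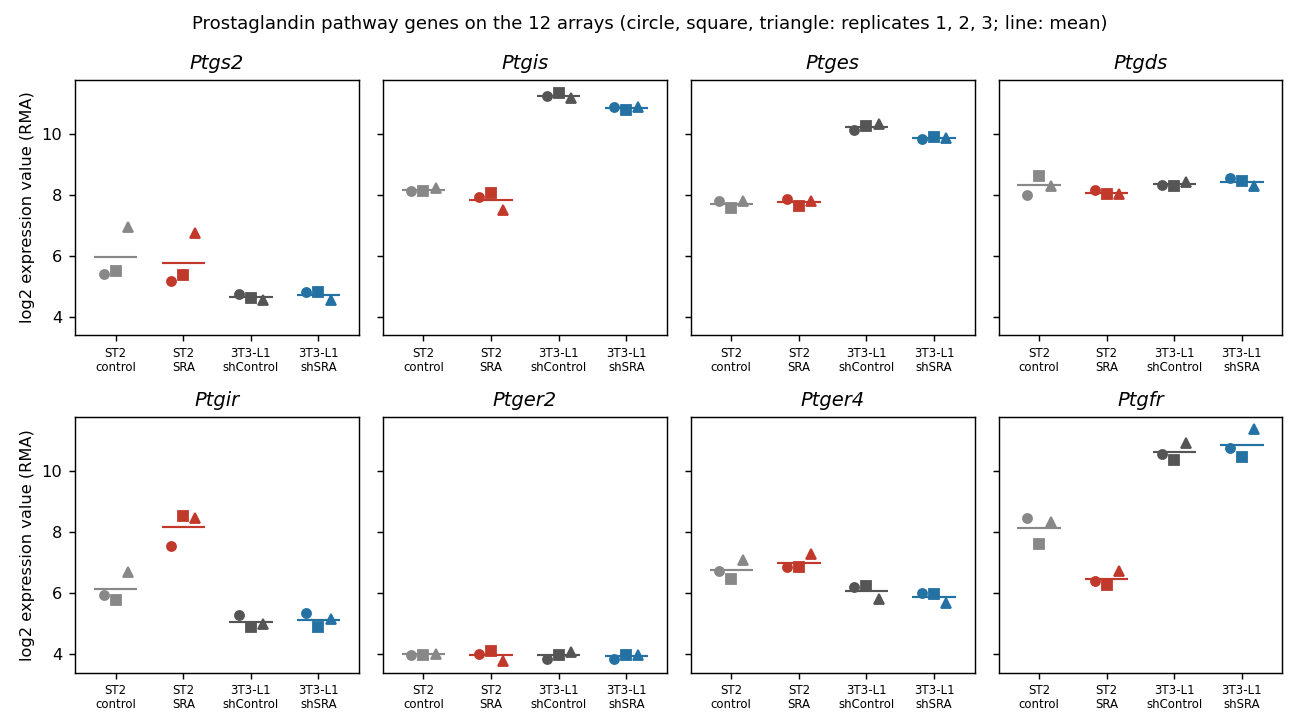
The log2 expression value of each measured gene (vertical axis) is shown by group, with 1 symbol per array (circle, square and triangle for replicates 1, 2 and 3) and a line at the group mean. Ptgir is highest on the 3 ST2 SRA arrays (7.54 to 8.52), Ptgfr is lowest there (6.28 to 6.74), and Ptgis, Ptges and Ptgfr are higher in both 3T3-L1 groups than in both ST2 groups.

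Ptgir lies on chromosome 7 (16906490-16910905, mouse build GRCm38.p6) and Ptgfr on chromosome 3 (151798610-151837528). Their promoter windows, 250 bases before to 50 bases after the start (RefSeq, same build), are printed because these genes moved in opposite directions in ST2 SRA adipocytes. That of Ptgs2 (gene at chromosome 1, 150100031-150108234) is printed because this immediate early gene varied with the replicate number in ST2 cells. Windows were found for 8 of the 9 genes. Capitals mark matches on either strand to the GC box GGGCGG, the cAMP response element core CGTCA, the nuclear receptor hexamer AGGTCA and the E-box CACGTG.
Ptgir, chr7:16906240-16906539, plus strand: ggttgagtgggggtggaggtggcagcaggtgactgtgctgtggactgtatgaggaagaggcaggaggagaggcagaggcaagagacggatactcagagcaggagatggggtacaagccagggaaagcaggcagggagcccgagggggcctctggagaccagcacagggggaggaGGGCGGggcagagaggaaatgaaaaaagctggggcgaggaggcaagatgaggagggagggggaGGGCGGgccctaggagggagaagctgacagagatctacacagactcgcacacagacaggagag
Ptgfr, chr3:151837479-151837778, minus strand: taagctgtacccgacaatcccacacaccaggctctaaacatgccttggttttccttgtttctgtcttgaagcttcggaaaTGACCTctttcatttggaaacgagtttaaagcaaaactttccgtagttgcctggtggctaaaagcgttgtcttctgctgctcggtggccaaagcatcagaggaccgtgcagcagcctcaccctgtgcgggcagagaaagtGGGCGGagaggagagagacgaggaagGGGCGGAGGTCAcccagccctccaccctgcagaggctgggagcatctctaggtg
Ptgs2, chr1:150099781-150100080, plus strand: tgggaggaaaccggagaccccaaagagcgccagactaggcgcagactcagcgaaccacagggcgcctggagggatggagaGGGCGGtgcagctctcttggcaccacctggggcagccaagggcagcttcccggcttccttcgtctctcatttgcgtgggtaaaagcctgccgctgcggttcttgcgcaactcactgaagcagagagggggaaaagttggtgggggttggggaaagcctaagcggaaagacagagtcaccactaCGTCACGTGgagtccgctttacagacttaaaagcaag

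The Ptgir window held 2 GC boxes and no match to the other 3 motifs. The Ptgfr window held 2 GC boxes and 2 AGGTCA hexamers, 1 on each strand. The Ptgs2 window held 1 GC box, 1 CGTCA core and 1 E-box, the last 2 overlapping in the run CGTCACGTG. Of 27025 mouse promoter windows of this length, 35.9% held GGGCGG, 21.0% CGTCA, 16% AGGTCA and 7.24% CACGTG. The CCAAT box (CCAAT, in 37.9% of windows) and the TATA box (TATAAA, in 14.2%) were also searched, and none of the 3 windows held either. Such matches describe the letters of these windows only.

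Ptgfr, the prostaglandin F receptor, was the other receptor that changed, and it fell. The ST2 control arrays read 8.46, 7.60 and 8.32 (mean 8.13 ± 0.46, n = 3), and the ST2 SRA arrays read 6.40, 6.28 and 6.74 (mean 6.48 ± 0.24, n = 3). The groups did not overlap, and the lowest control value was that of replicate 2, the array that stood apart. Ptgfr fell by 1.65 on the log2 scale (SE 0.24, 95% interval −2.16 to −1.15, adjusted p = 0.000134), 3.15-fold lower. Leaving out any 1 array gave −1.92 to −1.49, all past the test. It was the only one of the 7 other measured genes (5 of them tested) to pass there, 1 lower and 0 higher, where 7.98% of all 19068 probe sets tested passed, 2.33% higher and 5.65% lower.

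In 3T3-L1 adipocytes Ptgfr read 10.57, 10.39 and 10.93 in shControl (mean 10.63 ± 0.28, n = 3) and 10.75, 10.46 and 11.40 in shSRA (mean 10.87 ± 0.48, n = 3). The ranges overlapped, and replicate 3 was highest in both groups. The difference was 0.24 (SE 0.24, 95% interval −0.26 to 0.75, adjusted p = 1.00). The numbers pair the arrays of this line, as described with Ptges, and the pairs differed by 0.18, 0.08 and 0.47, so that shSRA was higher in 3 of 3. The change with SRA in ST2 minus that with shSRA in 3T3-L1 was −1.90 (SE 0.34, adjusted p = 0.00346), where 2.32% of probe sets passed the test of this difference, 2.07% with a negative one. Line, day, vector and direction of the SRA change cannot be told apart in it.

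Ptgfr had 5 probe sets, more than any other member. In ST2 cells 4 of them passed the test, at −1.65, −1.47, −1.26 and −1.61. The fifth, whose name ends in x_at, read 6.54, 7.52 and 6.36 in ST2 control and 6.81, 6.19 and 5.97 in ST2 SRA, ranges that overlapped, with a difference of −0.48 (SE 0.27, adjusted p = 0.300). This probe set also differed from the other 4 between the lines, at 0.20 for shControl minus ST2 control (adjusted p = 0.501) where the others gave 2.16 to 2.57. Probe sets of that suffix can hold probes that match other transcripts. None of the 5 passed the test in 3T3-L1, where they gave −0.01 to 0.29.

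**Figure D2:**
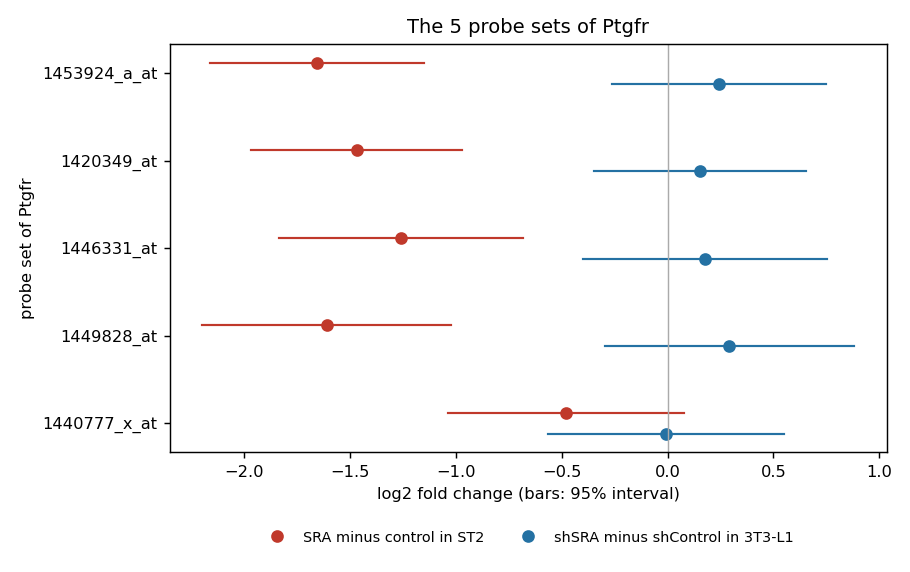
Log2 fold changes of the 5 Ptgfr probe sets (horizontal axis) with 95% intervals as bars, for SRA minus control in ST2 (red) and shSRA minus shControl in 3T3-L1 (blue). The red point of the x_at probe set lies at −0.48 and the others between −1.65 and −1.26, and every blue interval spans 0.

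Some preadipocyte and fibroblast markers also fell. Of 9 measured, 4 fell with SRA in ST2 (Pdgfra with a change of −1.25, Pdgfrb of −0.90, Col1a1 of −1.47 and Col3a1 of −1.95 on the log2 scale) and 0 rose, where 5.65% of probe sets fell. The other 5 gave −0.36 (Vim) to 0.17 (Dlk1). The summed level of the 9 was 82.47 to 84.87 on the control arrays and 76.82 to 79.01 on the SRA arrays, with no overlap. Cd34, alone among them, was below 6 on every array. None of the 9 passed the test in 3T3-L1, where the sums were 93.26 to 95.53 in shControl and 93.21 to 93.79 in shSRA. Their part in the Ptgfr result was not tested.

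Among the synthases, no gene passed the test in either SRA comparison. Ptgis, prostacyclin synthase (chromosome 2, 167203194-167252150), read 8.14, 8.14 and 8.24 in ST2 control and 7.94, 8.05 and 7.52 in ST2 SRA, the SRA arrays all lower and replicate 3 lowest. The difference was −0.34 (SE 0.16, adjusted p = 0.219), and −0.18 without ST2 SRA replicate 3 (adjusted p = 0.650). In 24.2% of probe sets the ST2 groups did not overlap, with the SRA group lower in 9.03% and higher in 15.2%. In 3T3-L1 cells it read 11.24, 11.34 and 11.17 in shControl and 10.88, 10.80 and 10.88 in shSRA, again all lower. The difference was −0.40 (SE 0.16, adjusted p = 1.00).

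Ptges, the inducible prostaglandin E synthase (chromosome 2, 30889471-30931020), also lay lower in shSRA. Its lead probe set read 10.14, 10.25 and 10.33 in shControl and 9.85, 9.92 and 9.86 in shSRA, with no overlap. The difference was −0.37 (SE 0.15, adjusted p = 1.00), and the other 2 probe sets gave −0.34 and −0.28, also without overlap. The 3T3-L1 groups did not overlap in 10.2% of probe sets, with shSRA lower in 4.69% and higher in 5.49%. The test was passed there by 0.0734% of probe sets, 0.0315% higher and 0.042% lower. None of the 8 measured members (6 of them tested) did by limma's test, and 2 (Ptgis and Ptges) had an unadjusted p under 0.05, as had 533 probe sets in all (2.8%). In ST2 cells Ptges read 7.79, 7.56 and 7.79 in control and 7.88, 7.65 and 7.81 with SRA, ranges that overlapped, with a difference of 0.06 (SE 0.15, adjusted p = 0.832).

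In 3T3-L1, arrays with the same replicate number deviated together from their group means, so the numbers pair the samples there. With the replicate number as a block and the 3T3-L1 arrays alone, the standard errors fell to 0.09 for both genes, and the adjusted p was 0.120 for Ptgis and 0.136 for Ptges. Under that fit 117 probe sets passed (0.614%), and still no member. Ptger4 and Ptgfr also had an unadjusted p under 0.05 there (0.0433 and 0.0455).

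Ptgs2 (COX-2), the inducible cyclooxygenase, followed the replicate number in ST2 cells. The control arrays read 5.40, 5.51 and 6.96 and the SRA arrays 5.18, 5.37 and 6.76. Replicate 3 was high in both groups, by more than 1 log2 unit, and the ranges overlapped. The second Ptgs2 probe set had the same pattern, with 5.98, 5.80 and 7.60 in control and 5.26, 5.70 and 6.97 with SRA. Fos, an immediate early gene named after its values were seen, read 7.07, 5.58 and 9.60 in control and 5.90, 5.91 and 8.89 with SRA, highest in replicate 3 of both groups as well. The difference of Ptgs2 between the ST2 groups was −0.19 (SE 0.35, 95% interval −0.92 to 0.55, adjusted p = 0.786), and −0.18 without replicate 3 of both groups. Arrays of the same number differed by −0.22, −0.14 and −0.20, and the second probe set was also lower with SRA at each number. With the replicate block in each line, limma's adjusted p in ST2 was 0.400 for the lead probe set and 0.0528 for the second. The numbers were not taken to pair the ST2 arrays, so this block is an alternative there. In 3T3-L1 the values of the lead probe set were 4.75, 4.60 and 4.55 in shControl and 4.82, 4.82 and 4.54 in shSRA, overlapping, with a difference of 0.09 (SE 0.35, adjusted p = 1.00).

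Ptgds, prostaglandin D synthase of the lipocalin family (chromosome 2, 25466709-25470110), lay close together in all groups. Its lead probe set ranged from 8.00 to 8.64 in ST2 control, 8.02 to 8.16 in ST2 SRA, 8.30 to 8.44 in shControl and 8.28 to 8.56 in shSRA. It did not reach the variance of 0.05 over the 12 arrays that the test required, and the differences, −0.25 in ST2 and 0.07 in 3T3-L1, were not tested. The second Ptgds probe set was tested and gave −0.06 in ST2 (SE 0.22, adjusted p = 0.888) and 0.20 in 3T3-L1 (SE 0.22, adjusted p = 1.00), with overlapping groups. On both probe sets the highest ST2 control value was that of replicate 2.

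Neither prostaglandin E2 receptor passed the test. Ptger4 (EP4, chromosome 15, 5233399-5244187) read 6.73, 6.46 and 7.09 in ST2 control and 6.87, 6.84 and 7.28 in ST2 SRA, overlapping, with a difference of 0.24 (SE 0.19, 95% interval −0.16 to 0.64, adjusted p = 0.479). It read 6.21, 6.24 and 5.81 in shControl and 5.99, 5.96 and 5.67 in shSRA, again overlapping, at −0.21 (SE 0.19, adjusted p = 1.00). The pairs differed by −0.22, −0.28 and −0.14, with shSRA lower in each. With the replicate block and the 3T3-L1 arrays alone, the SE of Ptger4 was 0.09 and the adjusted p 0.387. The second Ptger4 probe set ranged from 3.70 to 4.52 over the 12 arrays and gave 0.16 in ST2 and 0.12 in 3T3-L1, neither past the test. Ptger2 (EP2, chromosome 14, 44988111-45003820) lay between 3.78 and 4.09 on all 12 arrays, did not reach the required variance and was not tested.

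**Figure D3:**
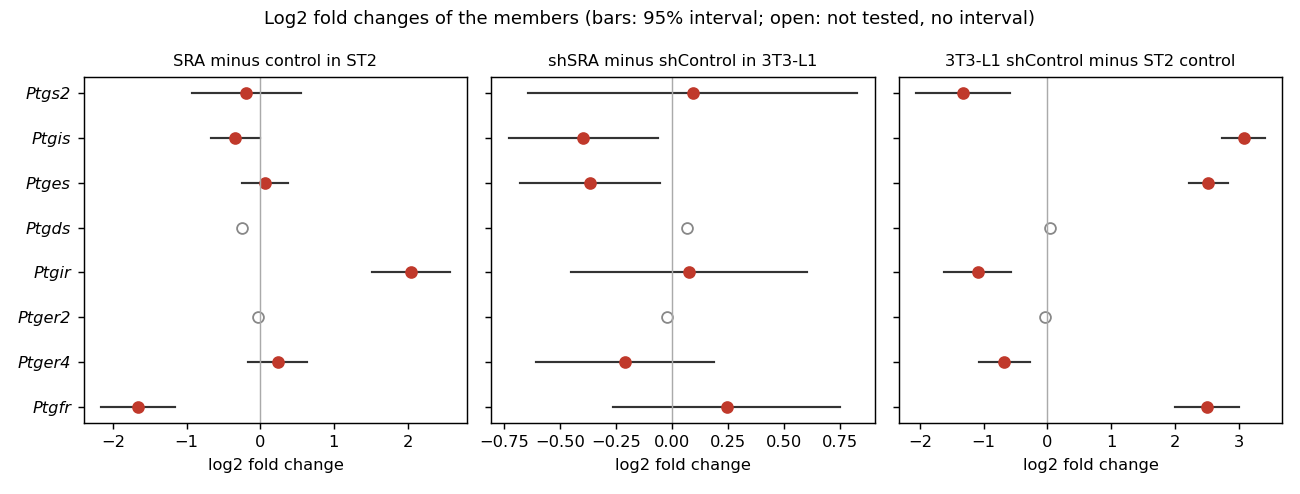
Log2 fold changes of the lead probe sets (horizontal axes, scaled separately in each panel) for both SRA comparisons and for shControl minus ST2 control, with 95% intervals as bars and open points for the 2 genes not tested. In ST2 Ptgir lies at 2.05, as the choice of the set fixed, so its bar there is no test. Ptgfr lies at −1.65 in ST2, and in 3T3-L1 no change exceeds 0.40 in size.

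Control adipocytes of the lines differed in most of these genes. Between shControl and ST2 control adipocytes, which differ in line, day and vector so that these cannot be told apart, 6 of the 8 measured genes passed the test, where 63.6% of probe sets did. These are the same control arrays as in the SRA comparisons. The genes of prostacyclin synthase, prostaglandin E synthase and FP were higher in 3T3-L1: Ptgis by 3.08 (SE 0.16, adjusted p = 2.84e-12), Ptges by 2.52 (SE 0.15, adjusted p = 2.35e-11) and Ptgfr by 2.50 (SE 0.24, adjusted p = 3.88e-08). All 3 of them had every 3T3-L1 array above every ST2 array. The control groups of the lines did not overlap in 62.9% of probe sets, 38% with 3T3-L1 higher and 25% with it lower.

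The other 3 were lower in 3T3-L1. Ptgir was lower by 1.09 (the difference was −1.09, SE 0.25, adjusted p = 0.00109), a change of −0.81 without ST2 control replicate 3. The ST2 control values of Ptgir also entered the choice of the set, so this p is not independent of that choice. Ptger4 differed by −0.67 (SE 0.19, adjusted p = 0.00506), and its second probe set by −0.26 (adjusted p = 0.211), which did not pass. Ptgs2 differed by −1.32 (SE 0.35, adjusted p = 0.00336), which shrank to −0.82 without ST2 control replicate 3 (adjusted p = 0.0303), and its second probe set by −2.25 (adjusted p = 6.23e-05). Ptgds (0.04) and Ptger2 (−0.03) were not tested. The shares of probe sets that passed in each direction were 37.4% higher and 26.2% lower in 3T3-L1. The control 3T3-L1 adipocytes thus had the higher levels of prostacyclin synthase and the lower levels of its receptor, each relative to control ST2 adipocytes.

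The rest of the pathway was followed through 78 further genes, listed by role, of which 72 were measured and 37 had a lead probe set that could be tested. With SRA in ST2, 3 rose, 4 fell, 30 did not pass the test and 35 were not tested, where 7.98% of all probe sets tested passed, 2.33% higher and 5.65% lower. These counts are a description of the list. The median of the 72 change was 0.01, against 0.06 over the lead probe sets of all genes. With shSRA in 3T3-L1, 0 rose and 0 fell by limma's test. Before adjustment 3 of the 37 tested had a p under 0.05 (Prxl2b, Pde4d and Sik1), all lower, as had 2.8% of all probe sets. The median was 0.00 against −0.01 over all lead probe sets.

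Of 6 further receptor genes, only 1 was tested, the partner of FP. It passed in ST2, where 7.98% of all probe sets tested did. Ptgfrn, a membrane protein that associates with the prostaglandin F receptor, read 9.31, 8.51 and 9.16 in ST2 control and 7.75, 7.67 and 7.91 in ST2 SRA, without overlap. It fell by 1.22 (SE 0.19, adjusted p = 0.000218), so both Ptgfr and Ptgfrn were lower with SRA. In 3T3-L1 it was also lower in shSRA on every array (7.72 to 8.04) than in shControl (8.14 to 8.26), at −0.36 (SE 0.19, adjusted p = 1.00). With the replicate block and the 3T3-L1 arrays alone, the adjusted p of Ptgfrn was 0.162. The other 5 receptor genes, for prostaglandin E2, prostaglandin D2 and thromboxane, gave −0.07 to 0.26 in ST2 and were not tested.

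Upstream of the receptors, 11 genes of arachidonate release were measured and 6 tested. Of these, 1 passed in ST2, where 7.98% of all probe sets tested did, 2.33% higher. Pla2g12a, a secreted phospholipase A2, rose from 11.35, 11.03 and 11.35 to 11.75, 12.03 and 11.88 with SRA in ST2, by 0.64 (SE 0.16, adjusted p = 0.0131). That call was lost without ST2 SRA replicate 2 (0.57, adjusted p = 0.10) and without replicate 3 of both ST2 groups (adjusted p = 0.0690). Among 5 further synthases, 3 of them tested, none passed. Ptges2, a membrane-associated prostaglandin E synthase, had the largest change, 0.38, which was not tested. The largest changes of these 2 lists in 3T3-L1 were −0.18 for Pla2g12a and −0.42 for Prxl2b, which makes prostaglandin F2α, both with an adjusted p of 1.00. With the replicate block and the 3T3-L1 arrays alone, the adjusted p was 0.483 for Pla2g12a and 0.0911 for Prxl2b.

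Of 6 genes of transport and inactivation, 5 of them tested, 1 rose and 1 fell in ST2, where 2.33% of probe sets rose and 5.65% fell. Abcc4, which exports prostaglandins and cyclic nucleotides, read 10.56, 10.58 and 11.18 in control and 11.44, 11.83 and 11.98 with SRA, higher by 0.98 (SE 0.20, adjusted p = 0.00288). Ptgr1, a reductase that inactivates prostaglandins, read 9.23, 8.42 and 8.92 in control and 8.19, 7.97 and 8.27 with SRA, and fell by 0.71 (SE 0.19, adjusted p = 0.0194). Neither pair of groups overlapped, but Ptgr1 no longer passed without replicate 3 of both ST2 groups (adjusted p = 0.102), without ST2 control replicate 1 (−0.53, adjusted p = 0.0719) or 3 (adjusted p = 0.0636), or without SRA replicate 1 (adjusted p = 0.0553) or 2 (adjusted p = 0.125). In 3T3-L1 the largest change of this list was that of Hpgd, the dehydrogenase that starts prostaglandin inactivation, at −0.27, not tested. Of the 8 lipoxygenase genes 3 were tested, and none of these passed. The largest changes of that list were those of Alox12, at 0.38 in ST2, and the leukotriene receptor gene Cysltr1, at −0.08 in 3T3-L1, neither tested.

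In cAMP signalling, 26 genes were measured and 12 tested. In ST2 1 rose and 1 fell, both adenylyl cyclases, where 2.33% of probe sets rose and 5.65% fell. Adcy8 read 7.34, 6.77 and 7.10 in control and 5.59, 5.40 and 5.66 with SRA, and fell by 1.52 (SE 0.18, adjusted p = 1.57e-05). Adcy9 read 8.85, 8.88 and 9.14 in control and 9.71, 9.83 and 9.82 with SRA, and rose by 0.83 (SE 0.15, adjusted p = 0.000986). Both had no overlap between groups. In 3T3-L1 they changed by 0.01 and 0.03, and the list's largest change there was −0.53 for the phosphodiesterase Pde4d (SE 0.20, adjusted p = 1.00). With the replicate block and the 3T3-L1 arrays alone, the adjusted p of Pde4d was 0.0808.

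Of 10 measured cAMP-responsive genes, 7 were tested, and 1 passed in ST2, where 7.98% of probe sets did. Nr4a1, an immediate early orphan nuclear receptor, read 10.24, 10.91 and 11.75 in control and 9.05, 9.52 and 10.50 with SRA. These groups overlapped, and in each group replicate 3 was the highest, as for Ptgs2. The difference was −1.28 (SE 0.36, adjusted p = 0.0328), and the call was lost without SRA replicate 1 (−0.96, adjusted p = 0.173) or 2 (adjusted p = 0.131), and without control replicate 2 (adjusted p = 0.10) or 3 (−0.89, adjusted p = 0.150). At each replicate number Nr4a1 was lower with SRA. With the replicate block in each line, its SE in ST2 was 0.15 and its adjusted p 1.53e-07, where 15.9% of probe sets passed. The numbers were not taken to pair the ST2 arrays, so this block is an alternative there. In 3T3-L1 Nr4a1 changed by −0.54 (SE 0.36, adjusted p = 1.00), and the adjusted p was 0.0719 with the replicate block and the 3T3-L1 arrays alone. The other 9 genes gave −0.52 (Fos) to 0.21 (Sik1) in ST2. The list's median was −0.02, against 0.06 over all lead probe sets.

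**Figure D4:**
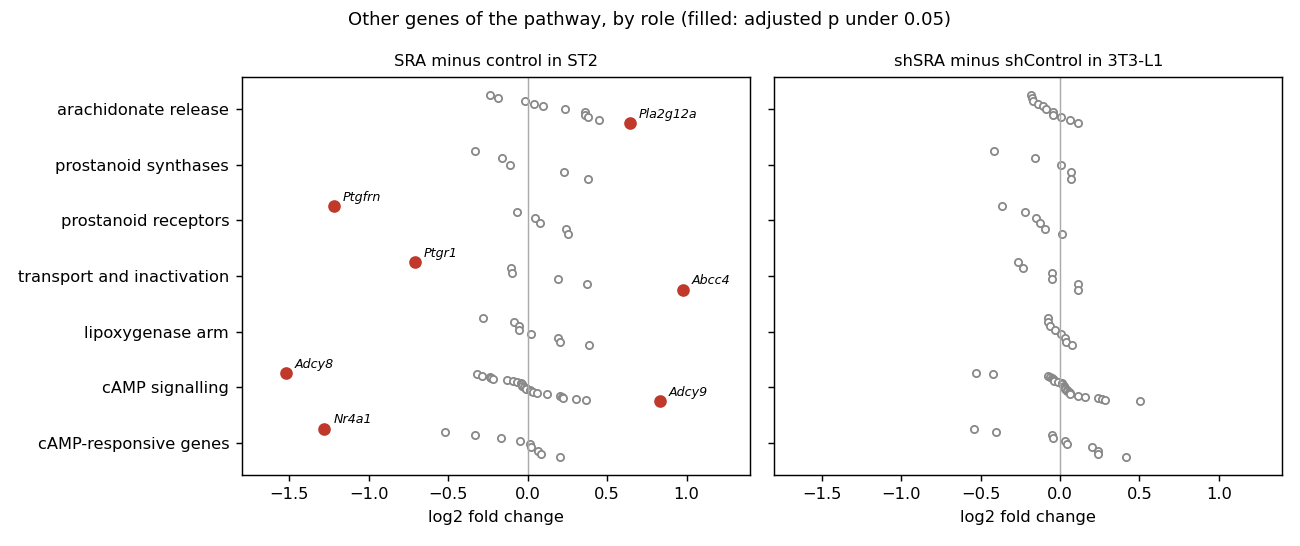
Log2 fold changes (horizontal axis) of the 72 further genes of the pathway, by role, in both SRA comparisons, with filled points for those with an adjusted p under 0.05. In ST2 the 7 filled points run from −1.52 (Adcy8) to 0.98 (Abcc4), and in 3T3-L1 there is none.

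The genes with the profile most like that of Ptgir were found by the root mean square difference of the 12 log2 values after each lead probe set was centred on its own mean, among 8189 candidates whose median difference was 1.36. Cyp4b1, a cytochrome P450 of the fatty acid hydroxylase family, was nearest at 0.26, with group means of 6.58 in ST2 control, 8.36 in ST2 SRA, 5.31 in shControl and 5.39 in shSRA. Coro6, a coronin gene, followed at 0.46, with means of 7.34, 8.35, 6.01 and 6.20 in the same order. Kcnk12, a potassium channel gene, stood at 0.61, Cpeb1, which binds cytoplasmic polyadenylation elements of mRNAs, at 0.63, and Prkab2, a regulatory subunit of AMP-activated protein kinase, at 0.63. All 5 had their highest group mean in ST2 SRA, the next in ST2 control and the lower means in both 3T3-L1 groups. This order follows from their choice by likeness to Ptgir on the same 12 arrays and is no separate result.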

How the data were processed

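Labelled cRNA from 5 µg of total RNA was hybridised to Affymetrix mouse genome arrays, 12 in all, and the authors deposited log2 values of 45101 probe sets made by robust multi-array averaging (RMA, affy and limma per the labels, versions not given in the sources used here). Quantile normalization in RMA forces equal distributions, and no detection call was used. Probe sets were named through the platform annotation, 34958 with 1 symbol, 932 with several and 9211 with none. Groups came from the labels. In R 4.3.3, limma 3.58.1 fitted 1 model of the 4 groups to the 19068 probe sets with a variance of at least 0.05, without covariates. Adjusted p-values are Benjamini-Hochberg over these probe sets in each comparison, with a threshold of 0.05. Scripts were tested on simulated data. The number of arrays, 3 per group, limits the precision.

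Same-numbered arrays deviated together in 3T3-L1 (correlations 0.59, 0.59 and 0.38 of the deviations from the group means), so these numbers pair the arrays there. Alternatives were no filter or a filter on a mean of 6, a replicate block, a second quantile normalization, centring on bright probe sets, each line alone, another probe set per gene, array weights (gene-by-gene method), robust eBayes, nested F classification and leaving out each array. The members and lists were chosen with earlier results of these data known. Genes named are the members, each listed pathway gene past the test in an SRA comparison or, in a list with none, that with the largest change, the 5 genes most like Ptgir, and Sra1. Of the pathway genes, Pla2g4b, Ptges3, Akr1b3, Akr1b7, Rapgef4 and Areg had no probe set of their own symbol alone and were not analysed here.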

Additional observations from a re-analysis of the deposited data

Results flagged for a closer look

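The effects of the 2 SRA perturbations on Ptgfr differed from each other by limma's test of the difference itself. The SRA effect in ST2 minus the shSRA effect in 3T3-L1 was −1.90 (adjusted p = 0.00346), from a change of −1.65 in ST2 and 0.24 in 3T3-L1.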

How the results depend on the processing

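Of 724 fold changes of members and named pathway genes recomputed under other settings, 687 kept their direction and their side of the threshold (or moved by less than 1 SD where there was no test). The number of members past the test was 1 for SRA in ST2, 0 for shSRA in 3T3-L1 and 1 for the difference of these effects under every setting run, the replicate block included. The counts for SRA in ST2 and for the difference leave out Ptgir, which was given no test there. Between the lines the number, with Ptgir counted, was 6, and 5 with the filter on a mean of 6, under which Ptgs2 was not tested. The Ptgir difference in ST2 ranged from 1.86 to 2.37 with 1 array left out and was 1.56 with array weights. For the pathway lists, 7 genes passed in ST2, 12 with array weights and 4 to 10 with 1 array left out, 4 without ST2 SRA replicate 2. Array weights gave −2.0 for Ptgs2 between the lines.

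Changes of sign came only in comparisons where the gene had not passed the test. In ST2, leaving out 1 array gave −0.68 to 0.32 for Ptgs2 (positive when it was SRA replicate 1 or 2, or control replicate 3) and −0.013 to 0.13 for Ptges (negative when it was control replicate 2). For Ptgs2, which followed the replicate number, this left 1 array without its same-numbered partner. The same-numbered differences of Ptgs2 in ST2 were all negative, at −0.22, −0.14 and −0.20. Ptges also gave −0.011 when centred on bright probe sets and −0.057 as the mean over its probe sets, and Ptger4 −0.039 with array weights. In 3T3-L1, Ptgs2 gave −0.14 for the probe set of highest variance and −0.021 as the mean over probe sets. With 1 array left out there, Ptgir ranged from −0.032 to 0.20 (negative when it was shSRA replicate 1 or shControl replicate 2) and Ptgfr from −0.021 to 0.45 (negative when it was shSRA replicate 3, which breaks a pair; all 3 pairs were positive). The cause was not tested.

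Calls were lost for Pla2g12a and Ptgr1 with the ST2 arrays alone (adjusted p = 0.0716 and 0.0579) and without replicate 3 of both ST2 groups, chosen after seeing the data (0.0690 and 0.102), and when single arrays were left out, and for Nr4a1 under every filter, normalization and moderation alternative, at most 0.181. Nested F classification also lost Ptgr1 and Nr4a1, and with the filter on a mean of 6 Adcy8 was not tested. The replicate block in each line gave 3023 calls over all probe sets in ST2 (1522 without it) and 101 in 3T3-L1 (14 without it), and 20 with the block in 3T3-L1 only. In ST2 the numbers are only shared, with correlations of 0.04, 0.27 and 0.53. The block changed no call of a member. With the block in each line, Pla2g12a, Ptgr1 and Nr4a1 kept their calls in ST2 (adjusted p = 0.00380, 0.00135 and 1.53e-07). With 3 arrays per group, small changes cannot be resolved.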
